A study of Homo sapiens with 12 samples.

Results

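The MAP kinase phosphatases of the dual-specificity phosphatase (DUSP) family were followed across 12 bulk RNA libraries of THP-1 cells, a human line established from acute monocytic leukaemia. The family was taken as the 10 rows of the count table, of 30017 symbols in all, named DUSP1, DUSP2, DUSP3, DUSP4, DUSP5, DUSP6, DUSP7, DUSP8, DUSP10 and DUSP16. All 10 passed the filter on low counts, as did 16010 symbols of the table. The members were chosen by their change with the drug CC-885 in these libraries: the family was proposed once that response had been seen, DUSP8 being among the largest rises. For that reason every value of drug against vehicle is given below as a description, with no p-value, while the differences between genotypes were tested for every member but DUSP8.

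Cells were electroporated with Cas9 alone or together with a guide RNA that targets IRAK4, a kinase that relays signals from Toll-like and interleukin-1 receptors. They were then grown out from single cells and sequenced at the target to choose wild-type (WT) and knockout (KO) clones. The labels do not state whether the WT clones had received the guide. Each genotype was kept for 12 h with DMSO, the solvent, or with 50 nM CC-885, a small molecule that makes the ubiquitin ligase subunit cereblon mark GSPT1, a translation termination factor, for degradation. Each of the 4 groups held 3 libraries. How many clones represent a genotype is not stated in the labels, so the effect of the edit and differences between clones cannot be told apart. They also do not say that replicates were separate cultures, so p-values measure only the spread between these libraries.

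MAP kinase phosphatases switch off the MAP kinases ERK, JNK and p38 by removing phosphate from the threonine and the tyrosine of their activation loop. Many are themselves transcribed in response to the kinases they switch off, which makes them a feedback brake. DUSP1, DUSP2, DUSP4 and DUSP5 act in the nucleus and are encoded by inducible genes. DUSP6 and DUSP7 act on ERK in the cytoplasm. DUSP8, DUSP10 and DUSP16 prefer JNK and p38, and DUSP3 is a small atypical member without the kinase-binding domain of the others.

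Promoter sequence was examined because DUSP1, DUSP8 and DUSP16 went from trace levels to high levels with the drug. RefSeq's promoter table (build GRCh38.p14) gave windows of 250 bases before to 50 bases after the transcript start for 8 of the 10 genes, all but DUSP4 and DUSP5. The cyclic AMP response element TGACGTCA, a sequence that CREB and ATF factors can bind, was searched on both strands and lay in 1.85% of the 35116 windows of the table. Among the members it lay in the windows of DUSP1 and DUSP8, and at 2 places in the latter. The stretches from 150 to 51 bases before the start are shown for the 3 genes, each on its minus coding strand, with the element in capitals. They lie at chr5:172771246-172771345 (DUSP1), chr11:1572322-1572421 (DUSP8) and chr12:12562914-12563013 (DUSP16).
DUSP1: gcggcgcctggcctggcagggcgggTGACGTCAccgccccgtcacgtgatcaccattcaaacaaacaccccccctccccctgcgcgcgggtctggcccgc
DUSP8: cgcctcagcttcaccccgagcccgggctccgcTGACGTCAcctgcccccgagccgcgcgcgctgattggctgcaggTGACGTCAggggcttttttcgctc
DUSP16: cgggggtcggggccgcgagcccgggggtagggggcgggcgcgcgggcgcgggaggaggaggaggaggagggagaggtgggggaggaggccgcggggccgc

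The element began 125 bases before the start of DUSP1, and 118 and 74 bases before the start of DUSP8. These starts are those of the promoter table. For DUSP8 that start lies within the gene bounds given below, as does the whole printed stretch. The printed DUSP16 stretch held none of the motifs searched. The other motifs were TGANTCA, bound by AP-1 (7.71% of all windows), TGATGNAA, bound by C/EBP-ATF pairs (3.62%), and GCGTGGGCG, bound by EGR factors (0.795%). None of these 3 was found in a member's window. A match describes the sequence and is not evidence that a factor bound there.

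The libraries held 46903984 to 56675539 counts. The levels below are CPM, the count of a gene scaled to a common library total with TMM factors. Those factors centre changes on the bulk of genes, so rises and falls are relative. In bulk RNA, fewer cells carrying a transcript and less of it per cell cannot be told apart. IRAK4 itself was at 50.9 to 53.9 CPM in WT under DMSO and at 7.28 to 8.78 CPM in KO, and with CC-885 the ranges were 65.4 to 83.6 and 29.6 to 31.7 CPM. All 10 monocytic markers examined were above 1 CPM on average in each group. Under DMSO their summed level was 2675 to 2728 CPM in WT and 2972 to 3800 CPM in KO. With the drug it was 2227 to 2410 CPM in WT and 1809 to 1863 CPM in KO. The markers did not move together. The mean of LYZ, the largest term under DMSO, went from 983.6 to 704.4 CPM in WT and from 1685 to 395.6 CPM in KO. PTPRC went from 265.3 to 671.6 CPM in WT and from 295.3 to 665.5 CPM in KO. CD14, which was low, also had a higher mean with the drug in both genotypes. Of the markers of other lineages, CD3E, CD3G, MS4A1, KRT19 and COL1A2 had no count. The T and NK cell list summed to 3.40 to 20.0 CPM, nearly all of it NKG7. The B cell list summed to 1.80 to 8.53 CPM and the erythroid list to at most 0.693 CPM. The epithelial, stromal and endothelial list summed to 93.3 to 442.4 CPM, nearly all of it PECAM1, which monocytes also express. The part of these shifts in the results was not tested. Library 3 of WT under CC-885 stood apart from its group: counts over genes differed from the other two with a chi-square of 76.1 and 62.3 per degree of freedom, against 5.06 between those 2. Results that change without it are marked. Library names start with 51 or 52, and the labels do not say what this prefix stands for. The prefix is 52 in libraries 2 and 3 of WT under DMSO. It is also 52 in library 3 of WT under CC-885 and of KO under DMSO. All others have 51, so prefix and group are partly confounded. Fits on prefix 51 alone hold 1 library of WT under DMSO.

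The phosphatases were first placed in order by level per length, CPM divided by the kilobases of exon sequence. In WT under DMSO the order ran DUSP3 (26.4 ± 0.349 CPM per kb, mean ± SD, n = 3), DUSP7 (18.5 ± 0.309), DUSP10 (15.7 ± 1.09), DUSP2, DUSP6, DUSP5, DUSP1, DUSP4, DUSP16 and DUSP8 (0.192 ± 0.0257). The neighbours in this order whose library ranges overlapped were DUSP1 with DUSP4 and DUSP4 with DUSP16. In WT under CC-885 the order ran DUSP8 (76.7 ± 7.29 CPM per kb), DUSP10 (54.3 ± 0.909), DUSP16 (29.7 ± 1.16), DUSP1, DUSP3, DUSP5, DUSP7, DUSP6, DUSP2 and DUSP4 (0.624 ± 0.0607), and only DUSP7 and DUSP6 overlapped as neighbours. The gene lowest of the 10 under DMSO was thus the highest under CC-885.

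In KO under DMSO the order was DUSP3 (32.2 ± 0.680 CPM per kb), DUSP7, DUSP10, DUSP2, DUSP6, DUSP5, DUSP4, DUSP16, DUSP1 and DUSP8 (0.0692 ± 0.0190), with DUSP16 and DUSP1 overlapping. Under CC-885 it was DUSP8 (130.8 ± 1.43 CPM per kb), DUSP10 (62.2 ± 0.959), DUSP16 (49.9 ± 0.706), DUSP3, DUSP1, DUSP5, DUSP7, DUSP6, DUSP2 and DUSP4 (1.36 ± 0.0874), with DUSP5 and DUSP7 overlapping. The top 3 under CC-885 were the JNK and p38 phosphatases in both genotypes.

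Summed over the 10 genes, the level per length was 75.7 ± 0.474 CPM per kb in WT under DMSO and 239.6 ± 12.1 under CC-885, and 70.0 ± 1.73 and 314.0 ± 2.33 in KO. The share of the JNK and p38 phosphatases DUSP8, DUSP10 and DUSP16 in that sum was 21.5% ± 1.37 in WT under DMSO and 67.1% ± 0.775 under CC-885. In KO it was 16.7% ± 0.541 and 77.4% ± 0.305. By share, the make-up of the 10 thus moved from DUSP3 and the cytoplasmic ERK phosphatases to DUSP8 and DUSP16. DUSP8 went from 0.254% to 32.0% in WT and from 0.0988% to 41.6% in KO. DUSP16 went from 0.531% to 12.4% and from 0.747% to 15.9%. DUSP10 moved less, from 20.7% to 22.7% and from 15.9% to 19.8%. The shares describe the drug response that chose the family, and the ERK phosphatase DUSP9 is not in the sum. The share of DUSP6 and DUSP7 went from 30.6% ± 1.36 to 5.54% ± 0.169 in WT and from 28.1% ± 0.222 to 2.91% ± 0.0695 in KO. DUSP3 went from 34.9% ± 0.433 to 8.66% ± 0.328 and from 46.0% ± 0.205 to 8.67% ± 0.193. The nuclear inducible class moved less, from 12.9% ± 0.424 to 18.7% ± 0.613 in WT and from 9.16% ± 0.361 to 11.1% ± 0.307 in KO.

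**Figure D1:**
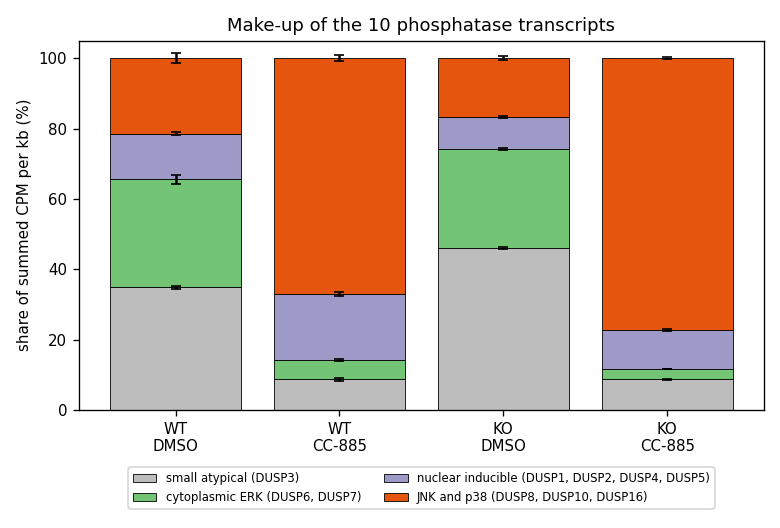
Share of each class of phosphatase in the summed level per length (CPM per kb of exon, y axis, percent) in the 4 groups (x axis); bars are means of 3 libraries and error bars are SD. The JNK and p38 class takes 21.5% and 16.7% of the sum in WT and KO with DMSO and 67.1% and 77.4% with CC-885.

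The response to CC-885 is described next by class. In WT, 7 members were higher (35.7% of all genes tested were called higher) and 2 were lower (36.6% called lower), at an adjusted p under 0.05 in edgeR's quasi-likelihood test. In KO, 7 were higher (38.9% of all genes) and 3 were lower (40.0%). The same 7 genes were higher in both genotypes: DUSP1, DUSP4, DUSP5, DUSP6, DUSP8, DUSP10 and DUSP16. DUSP4 was not called in WT with a block for the library-name number (0.29) or in libraries whose names start with 51 (0.25). Nothing is read from these counts, since the drug response chose the family. The median log2 fold change of the 10 was 1.14 in WT and 1.63 in KO, beside -0.03 for all genes in each.

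DUSP8, a phosphatase of JNK and p38 best known from brain and heart, had the largest response of the 10. Its level was 0.770, 1.01 and 0.884 CPM in the WT libraries under DMSO, against 377.9, 368.9 and 315.7 CPM with CC-885. The KO libraries read 0.280, 0.420 and 0.258 CPM and 597.0, 603.7 and 610.2 CPM. The DMSO values rest on 36 to 50 counts a library in WT and 13 to 24 in KO, and no treated library came near an untreated one. The log2 fold change was 8.63 ± 0.12 (SE) in WT, 397.5-fold, and 10.86 ± 0.13 in KO, 1852.5-fold. The gene lies on chromosome 11 from 1554051 to 1572848 on the minus strand (GRCh38).

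A neighbour overlaps DUSP8 on the other strand. KRTAP5-AS1, a long noncoding RNA gene at 1572741 to 1599184 of chromosome 11, shares 108 bases with it by RefSeq's gene bounds. It had 1 count over the 3 WT libraries under DMSO and 2 counts over the 3 KO libraries, against 4941 and 7943 counts under CC-885. That is 32.4 ± 0.861 CPM in WT and 52.5 ± 2.11 CPM in KO under CC-885. The strand setting of the counting is not given in the sources used here, so reads of the pair cannot be told apart where they overlap. By the start used for the promoter stretch above, the shared bases lie before the start of DUSP8. DUSP1, DUSP6 and DUSP16 also overlap antisense or long noncoding RNA genes in GENCODE's annotation, none of which has a row in the table.

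DUSP16, which holds JNK in check and shuttles between nucleus and cytoplasm, was also near silent without the drug. It stood at 2.20, 2.24 and 2.47 CPM in WT under DMSO and at 168.0, 164.2 and 177.1 CPM under CC-885. In KO the values were 2.82, 3.15 and 3.00 CPM and 290.3, 283.3 and 283.4 CPM. The groups lie far apart, with a log2 fold change of 6.20 ± 0.07 in WT (73.5-fold) and 6.58 ± 0.07 in KO (95.4-fold). The gene lies on chromosome 12 from 12473282 to 12562863, minus strand.

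DUSP10, a p38 and JNK phosphatase with roles in innate immune cells, was already well expressed. It stood at 42.1, 47.2 and 47.9 CPM in WT under DMSO and at 161.3, 157.1 and 156.5 CPM under CC-885. In KO it stood at 33.8, 33.1 and 30.3 CPM and at 178.5, 181.6 and 184.1 CPM. All treated libraries were above all untreated ones, and the log2 fold change was 1.79 ± 0.06 in WT and 2.48 ± 0.06 in KO. It lies on chromosome 1 from 221701424 to 221742089, minus strand.

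Among the nuclear inducible phosphatases DUSP1, an immediate early gene that restrains p38 and JNK in macrophages, had the largest response. Its level was 0.834, 0.967 and 1.32 CPM in WT under DMSO, against 50.1, 57.4 and 47.6 CPM with CC-885. The KO values were 0.740, 1.01 and 0.953 CPM and 49.5, 54.1 and 50.8 CPM. The 2 genotypes overlapped under each treatment, and the log2 fold change was 5.62 ± 0.14 in WT and 5.82 ± 0.14 in KO (56.6-fold). It lies on chromosome 5 from 172768096 to 172771195, minus strand.

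DUSP5, a nuclear phosphatase specific for ERK, was at 5.79, 7.33 and 6.48 CPM in WT under DMSO and at 36.2, 33.2 and 29.9 CPM under CC-885. KO libraries held 2.48, 2.81 and 2.64 CPM, and 14.8, 13.9 and 14.999 CPM. KO libraries were below WT libraries under both treatments, while the log2 fold change with the drug was 2.34 ± 0.10 in WT and 2.46 ± 0.11 in KO. The DUSP5 gene lies on chromosome 10 from 110497907 to 110511533, plus strand. Its pseudogene DUSP5P1 had the opposite pattern with the drug, at 6.88 ± 1.10 and 3.00 ± 1.27 CPM in WT and at 1.13 ± 0.282 and 0.210 ± 0.116 CPM in KO. How reads matching both were counted is not given in the sources used here.

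DUSP4, a nuclear phosphatase of ERK and JNK that ERK itself induces, was low throughout. It was at 3.59, 3.73 and 3.05 CPM in WT under DMSO and at 4.08, 4.55 and 4.96 CPM under CC-885. Among KO libraries it was at 5.86, 5.26 and 5.78 CPM and at 9.26, 10.5 and 9.83 CPM. The 4 groups did not overlap, and the log2 fold change with the drug was 0.39 ± 0.12 in WT and 0.81 ± 0.11 in KO. DUSP4 lies on chromosome 8 from 29333064 to 29350684, minus strand.

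DUSP2, a nuclear phosphatase found mainly in blood cells, behaved differently from the other nuclear members. It was at 12.3, 12.3 and 11.9 CPM in WT under DMSO and at 11.4, 11.1 and 11.9 CPM under CC-885. For KO it was 8.35, 7.61 and 8.20 CPM, then 4.11, 4.53 and 4.75 CPM. The log2 fold change was -0.09 ± 0.08 in WT, where the groups nearly touched and the gene was not called, and -0.85 ± 0.09 in KO, where they lay well apart. DUSP2 lies on chromosome 2 from 96143169 to 96145440, minus strand.

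The cytoplasmic ERK phosphatases went opposite ways. DUSP6, a feedback gene whose level is often read as a sign of ERK activity, was at 25.1, 20.7 and 19.8 CPM in WT under DMSO and at 29.9, 30.0 and 31.4 CPM under CC-885. In KO it was at 11.4, 12.3 and 10.8 CPM and at 17.0, 16.7 and 16.6 CPM. The log2 fold change was 0.48 ± 0.09 in WT and 0.54 ± 0.09 in KO, and treated libraries were above untreated ones in each genotype. The gene lies on chromosome 12 from 89347235 to 89352501, minus strand.

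DUSP7, the close relative of DUSP6, was at 106.4, 103.0 and 104.0 CPM in WT under DMSO and at 42.8, 41.0 and 29.9 CPM under CC-885. In KO it was at 100.3, 95.1 and 95.4 CPM and at 28.95, 32.4 and 32.0 CPM. The lowest value of WT under CC-885 belongs to the library that stood apart, and it lies within the KO range. The log2 fold change was -1.46 ± 0.10 in WT and -1.64 ± 0.10 in KO. DUSP7 lies on chromosome 3 from 52048919 to 52056571, minus strand. DUSP9, a further ERK phosphatase that is not among the 10, also had lower values with the drug: 28.6, 31.8 and 33.7 against 11.5, 11.9 and 15.1 CPM in WT, and 19.2, 18.3 and 21.2 against 6.15, 6.83 and 7.08 CPM in KO.

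DUSP3, a small phosphatase of ERK and JNK and of some receptor-linked proteins, was the highest of the 10 by CPM under DMSO. It was at 132.9, 130.6 and 134.0 CPM in WT under DMSO and at 111.1, 107.4 and 93.9 CPM under CC-885. In KO it was at 164.3, 162.1 and 157.6 CPM and at 138.5, 136.3 and 134.4 CPM. Its changes with the drug were small beside those above, at -0.35 ± 0.06 in WT and -0.24 ± 0.06 in KO on the log2 scale. The gene lies on chromosome 17 from 43766125 to 43778977, minus strand.

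**Figure D2:**
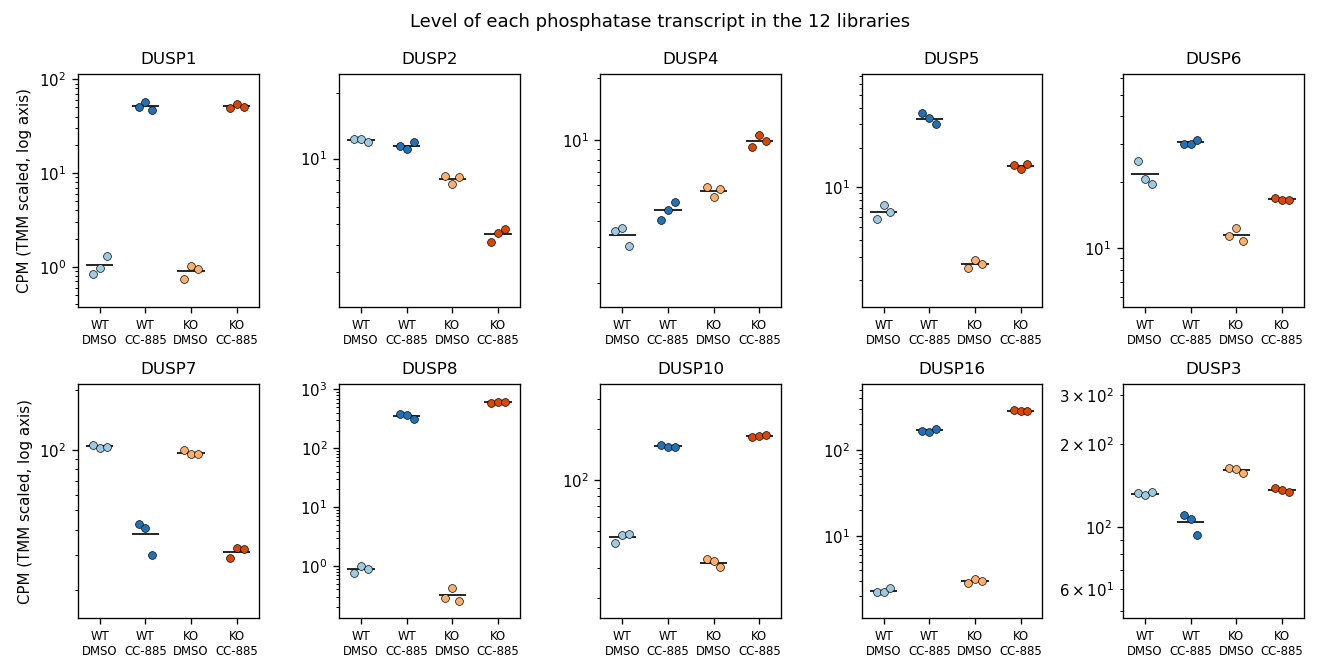
Level of each phosphatase transcript (CPM with TMM scaling, y axis, log scale with a separate range per panel) in the 4 groups (x axis; WT, wild type; KO, IRAK4 knockout); points are libraries and lines are means of 3. DUSP8 goes from at most 1.01 CPM under DMSO to between 315.7 and 610.2 CPM under CC-885, while DUSP7 goes from at least 95.1 to at most 42.8 CPM.

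The comparison of genotypes was tested first under DMSO. In KO, 3 of 10 members were higher (21.3% of all genes tested were called higher) and 5, DUSP8 included, were lower (28.4% called lower). The higher members were DUSP3, DUSP4 and DUSP16, and the lower ones were DUSP2, DUSP5, DUSP6, DUSP8 and DUSP10. The median log2 difference, KO minus WT, was -0.35 for the 10 and -0.06 for all genes. Over all genes 3415 were called higher and 4543 lower. With upper-quartile factors in place of TMM the split was 4685 to 3036, and the same counts of members, 3 and 5, were called.

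The largest of these differences were in DUSP8 and DUSP5. DUSP8 is described without a p-value, since its levels in all 4 groups were known when the family was chosen; it was 2.73-fold lower in KO, at -1.45 ± 0.20 on the log2 scale. DUSP5 fell by 1.30 ± 0.11 (edgeR adjusted p = 9.9e-08). DUSP6 fell by 0.92 ± 0.09 (adjusted p = 4.7e-07), DUSP2 fell by 0.60 ± 0.09 (adjusted p = 2.9e-05) and DUSP10 fell by 0.50 ± 0.06 (adjusted p = 7.4e-06). In all 5 the KO libraries lay below the WT libraries without overlap. DUSP4 rose by 0.71 ± 0.12 (edgeR adjusted p = 0.00010), DUSP16 by 0.37 ± 0.08 (adjusted p = 0.0014) and DUSP3 by 0.28 ± 0.06 (adjusted p = 0.0011), again without overlap. DUSP1 (-0.21 ± 0.18, adjusted p = 0.36) and DUSP7 (-0.11 ± 0.10, adjusted p = 0.39) did not pass the test. Outside the 10, DUSP9 fell by 0.68 ± 0.10 (adjusted p = 5.7e-05).

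Under CC-885, 5 of 10, DUSP8 included, were higher in KO (27.8% of all genes tested) and 4 were lower (30.8%). The median log2 difference was 0.09 for the 10 and -0.02 for all genes. The JNK and p38 phosphatases were all higher in treated KO cells: DUSP8 by 0.77 ± 0.07 (1.70-fold, a description), DUSP16 by 0.75 ± 0.05 (1.68-fold, edgeR adjusted p = 1.2e-08) and DUSP10 by 0.20 ± 0.06 (adjusted p = 0.011). The DUSP10 call was lost with a block for the number at the end of the library name (0.18, adjusted p = 0.0553, range 0.0019 to 0.0553). DUSP8 was lower in KO without the drug and higher with it, and DUSP10 had the same directions under every setting run. DUSP4 was higher by 1.12 ± 0.11 (edgeR adjusted p = 3.7e-07) and DUSP3 by 0.39 ± 0.06 (adjusted p = 4.6e-05).

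The lower members in treated KO cells were DUSP2, which fell by 1.36 ± 0.09 (edgeR adjusted p = 3.9e-09), DUSP5, which fell by 1.18 ± 0.10 (adjusted p = 3.7e-08), DUSP6, which fell by 0.86 ± 0.09 (adjusted p = 6.0e-07), and DUSP7, which fell by 0.29 ± 0.10 (adjusted p = 0.024). The DUSP7 groups overlapped through library 3 of WT under CC-885, the one that stood apart. Without it the difference was -0.43 (adjusted p = 5.4e-06). Leaving out library 1 of WT under CC-885 gave -0.19 (adjusted p = 0.123), leaving out library 2 gave -0.23 (0.101) and leaving out library 1 of KO under CC-885 gave -0.24 (0.101), over a range of adjusted p from 5.4e-06 to 0.123 in the 22 alternatives. The call was thus lost on leaving out any of 3 libraries and was stronger without another. DUSP1 did not pass the test (-0.01 ± 0.10, adjusted p = 0.96). The 2 genotype comparisons share no library.

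**Figure D3:**
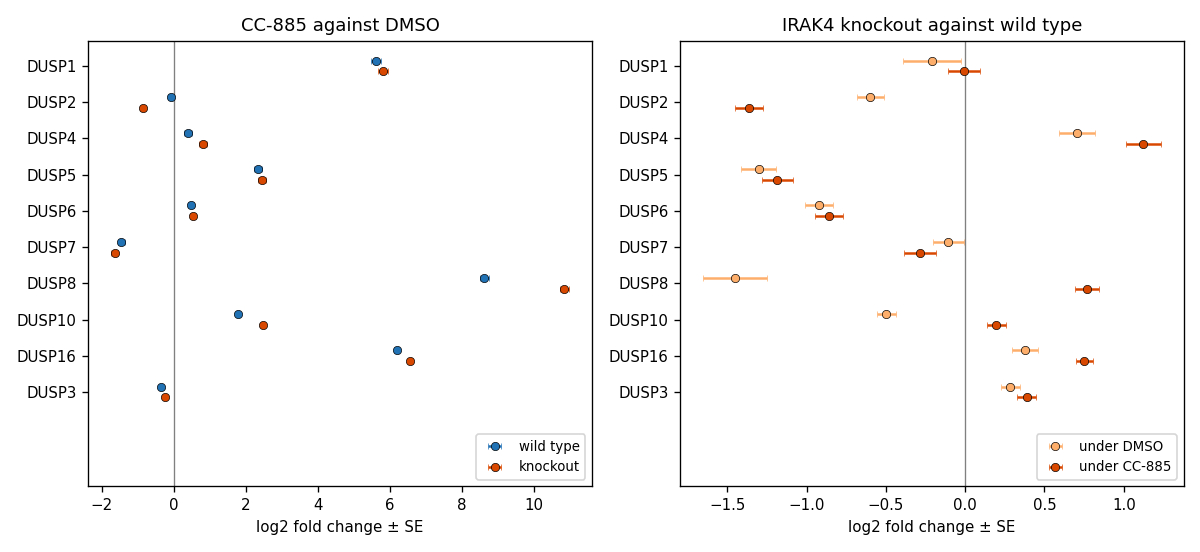
Log2 fold change (x axis, ± SE) of each phosphatase (y axis) with CC-885 in each genotype (left) and in knockout against wild type under each treatment (right); points are edgeR estimates over 3 libraries a group. DUSP8 and DUSP10 lie left of 0 under DMSO and right of 0 under CC-885 in the genotype panel, at -1.45 and 0.77, and at -0.50 and 0.20.

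The interaction, the log2 response to CC-885 in KO minus that in WT, asks whether the genotypes responded differently. The drug responses it compares were seen before the family was proposed, so its p-values do not stand apart from that choice. DUSP8 was again not tested; its difference was 2.22 ± 0.21. Of the 9 others, DUSP10 (0.69 ± 0.09, edgeR adjusted p = 2.5e-05) and DUSP16 (0.38 ± 0.10, adjusted p = 0.0080) responded more in KO, beside 17.9% of all genes called in that direction. DUSP2 (-0.76 ± 0.12, adjusted p = 0.00023) responded the other way, beside 16.8% of all genes. The median was 0.16 for the 10 and -0.01 for all genes.

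The call for DUSP16 was lost with no filter on low counts (0.29, edgeR adjusted p = 0.0567) and with a block for the number at the end of the library name (0.33, 0.0638). It was also lost in libraries whose names start with 51 (0.34), a fit with 1 library of WT under DMSO. The lowest adjusted p in 21 alternatives was 0.0036. For DUSP1 (0.20 ± 0.21, edgeR adjusted p = 0.48), DUSP3 (0.10 ± 0.09, 0.37), DUSP5 (0.12 ± 0.15, 0.57), DUSP6 (0.06 ± 0.13, 0.74), DUSP7 (-0.18 ± 0.14, 0.35) and DUSP4 (0.42 ± 0.16, 0.054) no difference in response passed the test. Without the library that stood apart, library 3 of WT under CC-885, DUSP4 (0.49, adjusted p = 0.0193, range 0.0193 to 0.184) and DUSP7 (-0.32, adjusted p = 0.0032, range 0.0032 to 0.681) passed it. The number of members called, DUSP8 included, then went from 4 to 6. Without library 3 of WT under DMSO, DUSP4 passed it as well (0.50, adjusted p = 0.0319).

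Since the cells were grown from single cells, the genotype difference of each phosphatase was set beside that of the genes around it. Of the tested genes, 93.2% could be placed on RefSeq's assembly, and the 10 nearest on each side of a member were taken. Around DUSP6, 18 of 20 neighbours were lower in KO under DMSO and 0 higher, with a median log2 difference of -1.09 beside -0.92 for DUSP6. Around DUSP5, 15 of 20 were lower and 0 higher, with a median of -0.999 beside -1.30. Both phosphatases therefore lie within stretches of genes that were lower in the knockout libraries, and under CC-885 the medians there were -1.12 and -0.91. With 5 or 20 neighbours on each side the DMSO medians were -1.10 and -1.07 around DUSP6, and -0.999 and -1.02 around DUSP5. The part of the region in the lower level of DUSP5 and DUSP6 was not tested.

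DUSP1 was also near its neighbours under DMSO, at -0.21 beside a median of -0.23 with 3 of 20 higher and 10 lower, but not under CC-885, at -0.01 beside -0.27. Around DUSP8, 11 of 20 neighbours were higher under DMSO and 1 lower, with a median of 0.48 where DUSP8 was at -1.45. Around DUSP10, 13 were higher and 0 lower, with a median of 0.38 where DUSP10 was at -0.50. Under CC-885 the medians were 0.65 around DUSP8 and 0.29 around DUSP10, close to the 0.77 and 0.20 of the genes themselves. With 5 or 20 neighbours on each side the DMSO median around DUSP8 was 0.24 and 0.19, and that under CC-885 was 0.68 and 0.30. The median around DUSP2 was 0.02 under DMSO and -0.01 under CC-885, and around DUSP4 it was -0.13 and -0.02, beside all-gene medians of -0.06 and -0.02. Around DUSP16 it was 0.20 and -0.13, around DUSP3 -0.06 and -0.10, and around DUSP7 0.04 and 0.04. These medians carry no test.

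**Figure D4:**
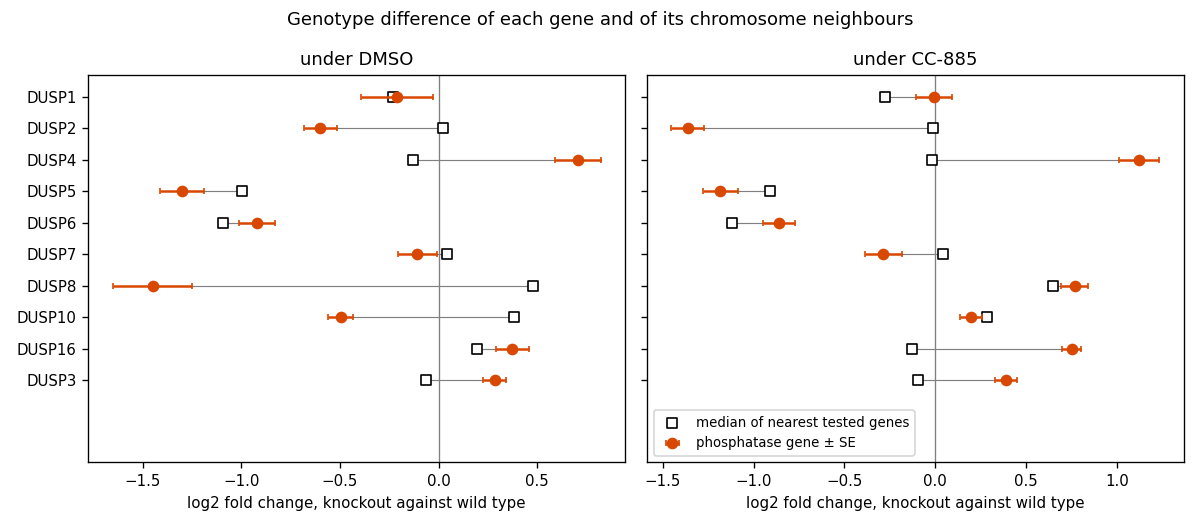
Log2 fold change in knockout against wild type (x axis) of each phosphatase (filled points ± SE) and the median of its 20 nearest tested genes (open squares), under DMSO (left) and CC-885 (right). DUSP6 and DUSP5 lie near their neighbours, at -0.92 beside -1.09 and at -1.30 beside -0.999 under DMSO, while DUSP8 lies at -1.45 beside 0.48.

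Members were also compared by pattern over the 12 libraries, as Pearson r of log2 CPM. The libraries fall into 4 groups, so r mostly reflects differences between the groups and is given without a test. The closest pairs of members were DUSP8 with DUSP10 (r = 0.997), DUSP1 with DUSP8 (0.994) and DUSP1 with DUSP16 (0.993). DUSP7 ran against DUSP16 (-0.989), DUSP2 against DUSP4 (-0.951) and DUSP3 against DUSP6 (-0.933). Among all tested genes reaching 5 CPM in a group, those most like DUSP8 were PEA15 (r = 0.9991), whose product binds ERK and keeps it in the cytoplasm, EIF1 (0.9988), a factor of start codon choice in translation, and TSTD2 (0.9986). PEA15 went from 117.3 to 876.2 CPM with the drug in WT and from 87.4 to 1108 CPM in KO. The genes most like DUSP1 were MXD1 (0.9985), a MYC antagonist, ZNF697 (0.9984) and NFIL3 (0.9981), a leucine zipper repressor. Those most like DUSP6 were CRADD (0.9893), an adaptor of caspase-2, TIAL1 (0.9884), an RNA-binding protein of stress granules, and VPS26A (0.9835), a retromer subunit. DUSP6 lies in a stretch of genes lower in KO, as described above, and likeness was not set beside gene position.

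The remaining genes of the pathway give the setting of the phosphatases. The counts with CC-885 stand beside 35.7% higher and 36.6% lower over all genes in WT, and 38.9% and 40.0% in KO, and the lists were not tested as groups. Of 10 MAP kinase genes tested, 2 were higher with CC-885 in WT and 7 lower, and 2 and 6 in KO. The median log2 change was -0.37 and -0.24 beside -0.03 for all genes. Among those reaching 5 CPM, MAPK8, which encodes a JNK, had the largest rise, 1.01 ± 0.08 in WT and 1.45 ± 0.08 in KO. MAPK12 (-0.73 ± 0.09 and -0.80 ± 0.09) and MAPK13 (-0.65 ± 0.22 and -0.96 ± 0.18), both p38 genes, fell. Transcripts of JNK and p38 genes thus moved in both directions.

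Of 7 MAP kinase kinases, 3 were higher and 1 lower in WT, and 4 and 3 in KO, beside the shares over all genes given above. The 2 that activate JNK moved apart: MAP2K4 rose by 0.85 ± 0.08 in WT and 1.501 ± 0.08 in KO, and MAP2K7 fell by 0.90 ± 0.07 and 0.99 ± 0.07. Of 22 MAP kinase kinase kinases, 14 were higher and 3 lower in WT, and 18 and 2 in KO. The largest rises there among genes reaching 5 CPM were in MAP3K14 (3.94 ± 0.08 and 4.07 ± 0.08), the NF-kB-inducing kinase, and BRAF (2.53 ± 0.08 and 3.22 ± 0.08), an ERK pathway kinase. MAP3K5, a stress-activated kinase upstream of JNK and p38, fell by 0.79 ± 0.10 and 1.06 ± 0.10.

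Of 6 scaffolds, 6 were higher in WT and 5 in KO, with 0 lower, led by SPAG9, a JNK scaffold (1.88 ± 0.06 and 2.32 ± 0.06). Of 7 Sprouty and SPRED genes, feedback inhibitors of the ERK pathway, 6 were higher in WT and 7 in KO, with 0 lower. SPRED2 rose by 1.65 ± 0.07 and 1.91 ± 0.07. Of 10 kinases that MAP kinases activate, 6 were higher and 3 lower in WT, and 7 and 3 in KO. RPS6KA2 rose by 2.95 ± 0.12 and 2.30 ± 0.12, while RPS6KA4 fell by 1.21 ± 0.07 and 1.52 ± 0.07.

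Of 13 tested transcripts that ERK signalling induces, 10 were higher and 2 lower in each genotype, with medians of 2.79 in WT and 2.51 in KO. EGR1 rose by 7.05 ± 0.11 and 6.62 ± 0.11, and CCND1, cyclin D1, fell by 1.06 ± 0.12 and 1.85 ± 0.12. Of 12 AP-1 and related factors that JNK and p38 act on, 10 were higher and 2 lower in WT, and 11 and 1 in KO, with medians of 2.59 and 2.77. JUN rose by 7.31 ± 0.12 and 8.43 ± 0.13, and ATF3 by 8.43 ± 0.09 and 8.38 ± 0.09. Of 14 other DUSP and MAP kinase tyrosine phosphatases tested, 7 were higher and 3 lower in WT, and 7 and 5 in KO, with medians of 0.23 and 0.11. Among the genes of that list reaching 5 CPM, DUSP14 had the largest rise in WT (1.76 ± 0.07) and DUSP12 in KO (1.40 ± 0.08). The low DUSP26 rose more, from 0.167 to 1.38 CPM in WT and from 0.249 to 1.19 CPM in KO.

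**Figure D5:**
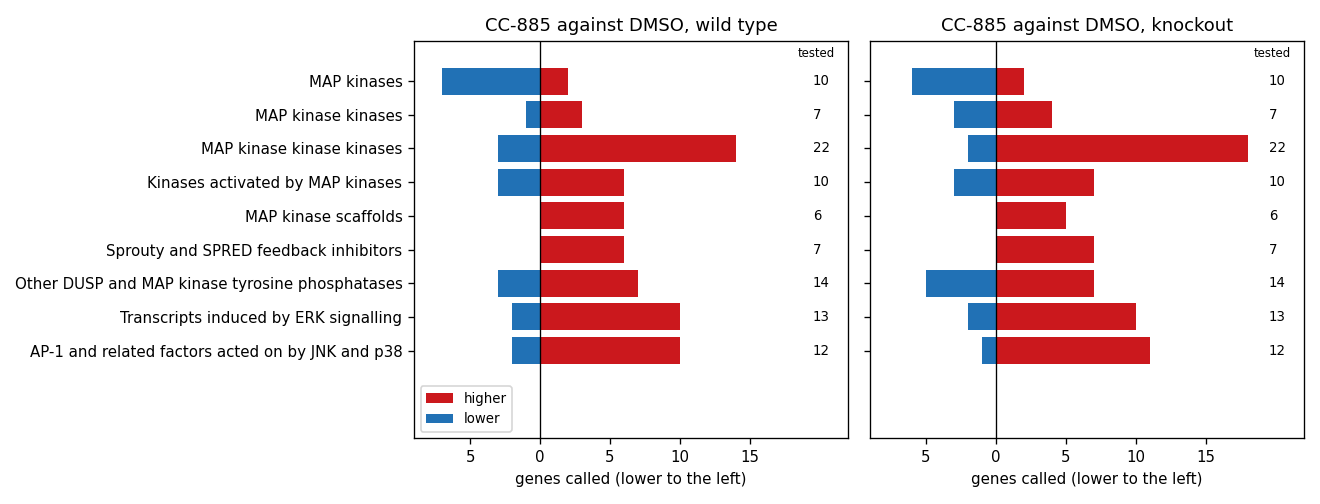
Number of genes called higher (right) and lower (left) with CC-885 at an edgeR adjusted p under 0.05 (x axis) in each pathway list (y axis), in wild type and knockout; the number tested stands at the right. MAP kinase genes are the list with more genes lower than higher in both genotypes, 7 against 2 and 6 against 2.

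Between genotypes, 21.3% of all genes were higher and 28.4% lower in KO under DMSO. There, 3 MAP kinase genes were higher in KO and 4 lower, with MAPK13 higher by 1.98 ± 0.19 (edgeR adjusted p = 3.6e-07) and MAPK8 lower by a log2 value of -0.80 ± 0.08 (adjusted p = 9.1e-07). Of the AP-1 list, 0 were higher and 5 lower, and ELK1, an ERK-activated factor, fell by 2.81 ± 0.11 (adjusted p = 3.3e-11). Of the ERK-induced transcripts, 1 was higher and 3 were lower. EGR1 fell by 1.25 ± 0.10 (edgeR adjusted p = 5.0e-08) and PHLDA1 by a log2 value of -1.52 ± 0.15 (adjusted p = 5.8e-07). CCND1 was higher by 1.06 ± 0.11 (edgeR adjusted p = 1.2e-06). DUSP5 and DUSP6 were also lower in these libraries, but within the stretches of lower genes described above. The part of the region in their level was not tested. For PHLDA1, EGR1, ELK1 and the other pathway genes, position was not set beside such stretches.

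Under CC-885, 14 of 22 MAP kinase kinase kinases were higher in KO and 4 lower, and 2 of 13 ERK-induced transcripts were higher and 6 lower, beside 27.8% and 30.8% of all genes. EGR1 fell by 1.68 ± 0.09 (edgeR adjusted p = 2.4e-10) and IER3 was higher by 1.53 ± 0.16 (adjusted p = 5.8e-07). JUN, a target of JNK, was higher by 0.80 ± 0.09 (adjusted p = 2.2e-06), and its response exceeded that in WT by 1.12 ± 0.14 (adjusted p = 2.1e-05). The response of MAP2K4 was also larger in KO, by 0.65 ± 0.11 (adjusted p = 0.00032), as was that of MAPK8, by 0.44 ± 0.11 (adjusted p = 0.0073), though MAPK8 was still lower in treated KO than in treated WT cells (-0.36 ± 0.08, adjusted p = 0.0012). The p38 gene MAPK14 had the opposite difference in response (-0.33 ± 0.10, adjusted p = 0.013).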

How the data were processed

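PolyA RNA of 12 libraries was sequenced, per the labels. The deposited values are raw counts per gene symbol, not normalized. The submitters' processing notes name HISAT2 2.0.5, featureCounts 1.5.2, FastQC 0.11.2 and build GRCh38, while the labels' extraction protocol names the mouse build mm10. The symbols are human. For the strand setting, the annotation and reads with several matches, the setting is not given in the sources used here. The cell line tag counts upward from sample to sample, and titles were followed. From the counts, edgeR 4.0.16 (R 4.3.3) was used with filterByExpr, TMM factors and a robust quasi-likelihood fit to all 12 libraries with 1 coefficient per group. P-values were adjusted by Benjamini-Hochberg over 16010 genes, and a gene was called under 0.05. Standard errors come from the F statistic. The 10 members, the pathway lists and the marker lists were chosen with earlier results of these data known. All members are named. From each list at most the 2 largest rises and 2 largest falls among called genes reaching 5 CPM are eligible to be named. Gene positions, promoters and neighbours come from RefSeq and exon lengths from GENCODE, both GRCh38. DESeq2 1.42.0, other scalings, no filter, blocks and omission of each library were tried as alternatives. The fitting procedure was tested on simulated data. Protein sequences were not used here.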

Additional observations from a re-analysis of the deposited data

Results flagged for a closer look

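The responses of 3 phosphatases to CC-885 differed between genotypes by edgeR's interaction test. That test draws on drug responses seen before the family was proposed, so its p-values carry that limit. The log2 response in KO minus that in WT was -0.76 for DUSP2 (adjusted p = 0.00023), 0.69 for DUSP10 (adjusted p = 2.5e-05) and 0.38 for DUSP16 (adjusted p = 0.0080). DUSP2 and DUSP10 kept their calls in all 21 alternatives run for them, over -0.85 to -0.70 and 0.52 to 0.75. DUSP16 kept its call in 18 of 21. The difference for DUSP8 was not tested, because both of its responses were known beforehand.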

How the results depend on the processing

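Across 22 alternative settings the 10 phosphatases gave 1090 values in 50 member comparisons. Of these, 1055 kept direction and side of the threshold, 11 lost the call, 7 gained it and 17 changed sign, none of the last for a called member. The number of members called, DUSP8 included, stayed at 8 to 9, 10, 8 and 8 to 9 in the first 4 comparisons. In the interaction it was 3 to 6. With a replicate block by the number in the titles the counts were 9, 10, 8, 9 and 4, as without it, and it changed no call. Those numbers were not taken to pair the libraries. Of 18 same-number pairs, 2 had correlated deviations over 0.1 (range over all pairs -0.034 to 0.23). Both were of WT under CC-885 with KO under DMSO, at 0.21 for library 1 and 0.23 for library 3. Sign changes with upper-quartile factors were DUSP7 in KO under DMSO (0.016), DUSP1 in KO under CC-885 (0.037) and DUSP6 in the interaction (-0.014). DUSP1 in KO under CC-885 was 0.0091 with DESeq2 size factors, 0.0027 with library size alone and 0.0082 with DESeq2. DUSP6 in the interaction was -0.020 with no filter. The library-name number as a block gave -0.0051 for DUSP1 in the interaction. Libraries with prefix 51 gave 0.078 for DUSP1 in KO under DMSO, and -0.14 and -0.12 for DUSP1 and DUSP5 in the interaction. Leaving out single libraries gave ranges across 0 for members that did not pass the test: DUSP1 in KO under DMSO (-0.34 to 0.0065) and under CC-885 (-0.062 to 0.076), and in the interaction DUSP1 (-0.013 to 0.33) and DUSP6 (-0.048 to 0.13). DUSP7 in KO under CC-885 lost its call with upper-quartile factors (-0.24, edgeR adjusted p = 0.0720) and with only the groups compared (-0.28, 0.103). DUSP4 passed edgeR's interaction test with the library-name block (0.52, adjusted p = 0.0371) and the prefix as a covariate (0.42, 0.0427). In libraries with prefix 51, with 1 library of WT under DMSO, its interaction was 0.57 and that of DUSP7 was -0.30. The causes were not tested. With upper-quartile factors the all-gene median for CC-885 in KO went from -0.03 to -0.18, and the interaction's split from 2871 higher and 2691 lower to 2168 and 3291; without a filter it was 1993 and 3185. Of 1962 recounts of the 90 pathway-list counts, 108 moved by over 1.5 times. The share of DUSP8, DUSP10 and DUSP16 by longest transcript, an alternative chosen after seeing the data, was 18.2%, 65.5%, 14.02% and 75.8% in WT under DMSO and CC-885 and KO likewise. Levels of DUSP8 under DMSO rest on 13 to 50 counts a library, which limits the precision of its fold.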
